A study of Mus musculus with 39 samples.

Results

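The 36 genes described here act in ribosome biogenesis, the making of new ribosomes in the nucleolus. They were chosen by symbol: each row of the deposited count table whose gene symbol was on the list was taken, which gave 36 of 55011 symbols. All 36 had counts in each of the 39 libraries and all 36 passed the filter on low counts in the fits that the values below come from. With the groups of 1 comparison fitted alone, 35 passed at day 14. By role they comprised 3 RNA polymerase I genes or regulators, 3 box C/D and 3 H/ACA ribonucleoprotein genes, 4 nucleolar chaperones and GTPases, 13 genes of the small subunit processome and 40S maturation, and 10 genes of 60S assembly.

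Ribosome production starts with RNA polymerase I, which transcribes the long precursor of the ribosomal RNAs. Small nucleolar RNAs then guide 2′-O-methylation (box C/D particles) or pseudouridylation (H/ACA particles) of that precursor, while processing factors cut it and load ribosomal proteins to give the small 40S and large 60S subunits. Transcription factors of the Myc family are known activators of these genes, and their levels are known to follow cell growth and proliferation, as in satellite cells (muscle stem cells, MuSC) that leave quiescence after injury.

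RNA was measured by sequencing in 14 groups of mouse libraries. Sorted libraries held 1000 cells each and whole tibialis anterior libraries were made from 2 ng of RNA. The submitters describe the 2 to 3 libraries of a condition as biologically independent, and no age was given in the sources used here. In sorted T cells carrying the Vγ6 receptor chain, wild-type mice without toxin supplied cells from the colonic lamina propria of untreated animals (n = 3) and from hindlimb muscle 3 days after cardiotoxin injury (n = 3). In the time course, wild-type (WT) and Tcrd-DTR (DTR) mice both had intraperitoneal diphtheria toxin and cardiotoxin injury, and whole muscle was taken at days 1, 3, 7 and 14 (n = 3 each, but n = 2 for DTR at day 7). As the strain name gives it, Tcrd-DTR mice carry the toxin receptor at the gene of the T-cell receptor delta chain, so the toxin acts on γδ T cells of the whole body and not of muscle alone. In the cytokine experiment, wild-type mice had cardiotoxin injury and no diphtheria toxin, and muscle was taken at day 7. They had PBS (n = 2) or rIL-17A, the recombinant cytokine (n = 2), by both the intraperitoneal and the intramuscular route. Satellite cells were sorted at day 1 from injured muscle of toxin-treated WT (n = 3) and DTR (n = 3) mice.

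Libraries held 2372139 to 10974862 counts. Counts of the γδ receptor genes Trdc, Trgc1 and Trgv6 summed to 14 to 19 per WT library and 0 to 2 per DTR library at day 3, and to 1 to 16 in WT and 0 in DTR at day 7. At day 1 they overlapped, with 2 to 5 in WT and 1 to 4 in DTR, and at day 14 they were 4 to 5 and 1 to 2. Levels are given as CPM, a gene's counts scaled to a common library total. The summed CPM of olfactory and vomeronasal receptor genes, which muscle is not known to use, ranged from 12.1 to 2880 between libraries. In satellite cells from DTR mice, 1 of 3 libraries held 3980 CPM of 10 myofibre genes against 67.7 and 89.0 in the others. In bulk libraries, fewer cells of a type and less RNA per cell cannot be told apart. Changes are log2 fold changes ± SE from edgeR after TMM scaling, called at an adjusted p under 0.05.

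Among the genes are hosts of annotated small nucleolar RNAs. In the GENCODE M21 annotation 7 of the 36 (19.4%), namely Nop58, Nop56, Ncl, Wdr43, Gnl3, Tsr1 and Dkc1, carry annotated small nucleolar RNAs within their span, against 279 of 21951 protein-coding genes (1.27%). The 4 guides printed here come from genes of the 36 and were chosen among those with both short motifs by which box C/D RNAs are recognised. The C box (ATGATGA or GTGATGA) and the D box (CTGA) are in capitals. Other annotated RNAs in these genes, such as Snord70 in Nop58 and Snord57 in Nop56, did not match both motifs as spelled here. Snord11 lies within Nop58 (GRCm38 chr1:59704790-59704873, plus strand), Snord110 within Nop56 (chr2:130275506-130275573, plus), Snord82 within Ncl (chr1:86356261-86356330, minus) and Snord92 within Wdr43 (chr17:71631281-71631365, plus).
Snord11: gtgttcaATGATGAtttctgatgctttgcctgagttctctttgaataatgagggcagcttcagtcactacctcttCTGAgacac
Snord110: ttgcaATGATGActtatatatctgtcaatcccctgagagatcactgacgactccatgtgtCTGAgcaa
Snord82: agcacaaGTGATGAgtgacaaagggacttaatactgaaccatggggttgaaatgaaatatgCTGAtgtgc
Snord92: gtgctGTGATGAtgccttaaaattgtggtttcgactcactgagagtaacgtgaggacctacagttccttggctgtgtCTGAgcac
The 2 box C/D scaffold genes Nop58 and Nop56 thus each hold box C/D guides within their own gene. The labels name polyadenylated RNA as the molecule, and the levels of the guides themselves were not analysed here.

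Promoters were read for 31 of the 36 genes from RefSeq windows on GRCm38.p6, from 250 bases before to 50 bases after the start. No window was matched for Npm1, Fbl, Rrp12, Bop1 and Rrs1, which were therefore not searched. A gene with several windows was counted once, by a match in any of them. The E-box CACGTG, a palindrome that Myc proteins are known to bind, was found for 8 of 31 genes (25.8%). It was found for 8.09% of all 27025 genes with windows and for 10.7% of the 12911 tested in the time course. The letters CCGGAAG, the core that ETS factors bind, were on either strand for 10 genes (32.3%), against 9.93% and 16.5%. The palindrome that NRF1 binds was found for 1 gene (3.23%), against 1.07% and 1.94%. The 8 E-boxes are shown with their surroundings on the gene's strand, E-box in capitals. Any part of Myc in the changes below was not tested.
Mybbp1a, chr11:72441347-72441376: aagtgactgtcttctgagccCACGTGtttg
Nop2, chr6:125131811-125131840: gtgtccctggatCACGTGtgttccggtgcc
Pes1, chr11:3963965-3963994: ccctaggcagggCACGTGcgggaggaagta
Pno1, chr11:17211540-17211569: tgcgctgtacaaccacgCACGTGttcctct
Tsr1, chr11:74898092-74898121: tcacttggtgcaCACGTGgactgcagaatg
Utp20, chr10:88826765-88826794: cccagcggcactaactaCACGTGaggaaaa
Utp4, chr8:106893643-106893672: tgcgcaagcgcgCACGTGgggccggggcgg
Wdr43, chr17:71616220-71616249: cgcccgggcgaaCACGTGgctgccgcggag
Of these, 7 lie within 40 bases after the start and the one of Nop2 lies 60 bases before it. A match is a description of the letters and no evidence of binding.

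The summed level of the 36 genes separated sorted satellite cells from every other group. It was 13330 ± 747 CPM (SD, n = 3) in WT and 13320 ± 636 CPM (n = 3) in DTR satellite cells. Whole muscle of the time course held 2990 to 4222 CPM per library at days 1 and 3 and 982 to 1326 CPM at days 7 and 14, with no overlap between the early and the late days. Vγ6 cells held 3056 to 3389 CPM in colon and 2314 to 2408 CPM in muscle.

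**Figure D1:**
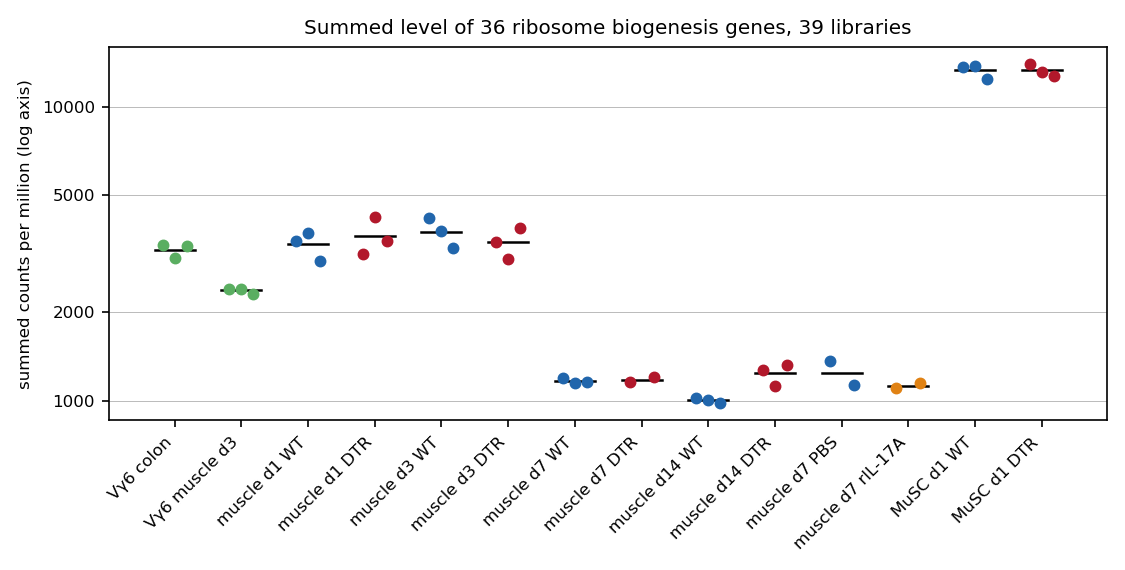
Summed CPM of the 36 genes on a log axis, 1 point per library and 1 column per group, with bars at the group means. The 6 satellite cell libraries sit between 12470 and 14010 CPM, above all other libraries, and day 7 and day 14 muscle lies lowest.

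Per kilobase of the longest transcript, Npm1 had the highest mean level of the 36 in each of the 14 groups, with 995 ± 250 CPM per kb in satellite cells and 177 ± 25.5 in day 1 muscle. Npm1 encodes nucleophosmin, a histone chaperone that is the main protein of the granular zone of the nucleolus. Nhp2, a core protein of H/ACA particles, was next in both, with 503 ± 42.3 and 132 ± 23.4 CPM per kb. Utp20, a very large scaffold of the small subunit processome, was lowest in both, with 8.33 ± 2.01 and 2.94 ± 0.401 CPM per kb. Within groups the median coefficient of variation of the 36 genes ran from 6.62% in DTR satellite cells to 21.9% in DTR muscle at day 14.

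**Figure D2:**
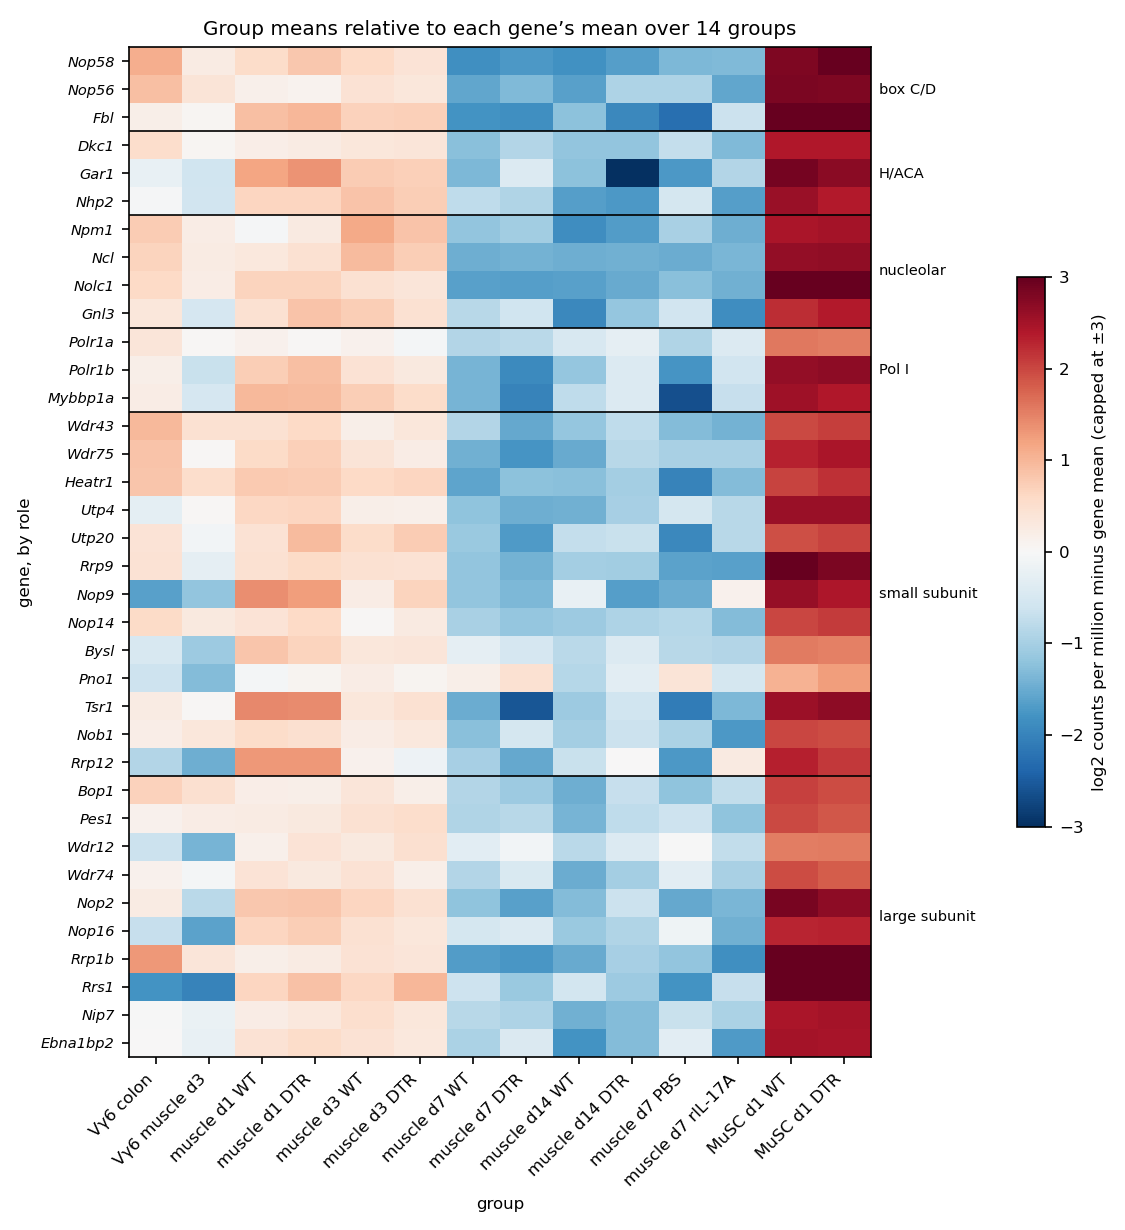
Group mean log2 CPM of each of the 36 genes (rows, by role) relative to that gene's mean over the 14 groups (columns), colours capped at ±3. Satellite cells are above the mean for every gene, and muscle at days 7 and 14 is below it for most.

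Satellite cells against whole muscle were compared at day 1 within toxin-treated WT mice. Of the 36 genes 35 were higher in the sorted cells and none was lower, where 28.2% of 12983 tested genes were higher and 32.3% lower. The median log2 change of the 36 was 1.34 and that of all tested genes −0.06. The exception was Bysl, a 40S maturation factor, at 0.32 ± 0.17 (adjusted p = 0.118).

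Among box C/D proteins Nop56, a scaffold of the particle, stood at 691, 691 and 721 CPM in satellite cells and 112, 121 and 95.0 CPM in muscle. The groups lay far apart, and the change was 2.27 ± 0.17 (adjusted p = 5.37e-08). Its partner Nop58 rose by 1.82 ± 0.27, although satellite cell replicate 3 held 256 CPM where replicates 1 and 2 held 596 and 624. The methyltransferase Fbl rose by 1.77 ± 0.22.

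Npm1 showed the same low replicate, with 1873, 1847 and 1153 CPM in satellite cells against 257, 336 and 272 CPM in muscle, and rose by 2.08 ± 0.20 (adjusted p = 6.39e-07). Ncl, nucleolin, which binds the ribosomal RNA precursor, had 2165, 2137 and 1578 CPM in the sorted cells and 392, 435 and 363 CPM in muscle, a rise of 1.89 ± 0.18. In Nop58, Npm1 and Ncl replicate 3 was the lowest of the sorted libraries, yet it lay above every muscle library. Nolc1, a chaperone of both kinds of guide particle, rose by 2.08 ± 0.19.

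The largest change was that of Rrp1b, a nucleolar 60S factor, at 2.45 ± 0.22 (adjusted p = 2.87e-07). Rrs1 and Nip7, also of 60S assembly, rose by 2.20 ± 0.20 and 1.82 ± 0.16. Rrp9, a protein of the U3 guide particle that starts small subunit assembly, rose by 2.13 ± 0.18, and Dkc1, the pseudouridine synthase, by 1.80 ± 0.19. Of polymerase I, the second largest subunit Polr1b rose by 1.49 ± 0.18 and the largest, Polr1a, by 1.04 ± 0.19.

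Beyond the 36, 66 of 77 other assembly factors were higher and none lower (median 0.96), as were 36 of 36 ribosomal protein genes (median 1.39) and 13 of 18 tested genes of the polymerase I machinery (median 0.69). Rcl1, an endonuclease-like 18S processing factor, rose by 3.18 and Tbl3, a processome subunit, by 1.92. Myc rose by 2.67 (adjusted p = 4.21e-08). Of cell markers, 14 of 14 cycling genes and 9 of 10 satellite cell genes were higher, while 10 of 10 macrophage, 10 of 10 myofibre and 6 of 6 endothelial genes were lower. Cycling genes summed to 3265 to 3501 CPM in sorted cells and 229 to 315 CPM in muscle. Genes of fibro-adipogenic progenitors also summed higher in sorted cells, at 6267 to 8358 CPM against 3738 to 4464 CPM in muscle, without overlap. Itgam, S100a8, S100a9, Retnlg, Ly6g and Emcn had no count in WT satellite cells, and the part of this difference in cells and of the 2 kinds of RNA preparation cannot be told apart.

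Satellite cells of DTR and WT mice were then compared, which addresses whether the loss of γδ T cells reached the stem cells at day 1. None of the 36 genes was called by edgeR in either direction, where 0% of 12081 tested genes were called higher and 0% lower. None had an unadjusted p under 0.05, against 719 of all tested genes, and DESeq2 also called 0 of the 36. The median log2 change was −0.01. The largest was that of Nop58, at 0.40 ± 0.28, with 725, 636 and 588 CPM in DTR against 596, 624 and 256 CPM in WT, ranges that overlapped. Npm1 stood at 0.04 ± 0.17, Ncl at 0.04 ± 0.14, Fbl at −0.04 ± 0.18, Dkc1 at −0.00 ± 0.13, Polr1a at −0.05 ± 0.12 and Polr1b at 0.03 ± 0.12. Of the other lists, 36 of 36 ribosomal protein genes were below 0 (median −0.20) and 14 of 14 cycling genes were below 0 (median −0.34), with none called. Cycling genes summed to 2260 to 3282 CPM in DTR and 3265 to 3501 CPM in WT.

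These small changes were ordered by base composition. Over the 36 genes the rank correlation of the change with the GC content of the longest transcript was −0.80, against −0.33 over 11935 genes, all measured in the same 6 libraries. The part of base composition in the changes was not tested. Under an offset for transcript length and GC content 0 of the 36 were called. As none was called without the offset either, that count cannot inform on base composition.

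Vγ6 T cells from injured muscle and from colon differed in many of the genes. In muscle 19 of the 36 were lower and none higher, where 12.2% of 11907 tested genes were lower and 12.3% higher. The median log2 change was −0.51, against −0.01 for all tested genes, and the count was 19 under each scaling and 16 to 18 with each library left out.

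Nop58 had 156, 143 and 154 CPM in colon and 96.0, 80.5 and 74.6 CPM in muscle. The groups did not overlap, and the gene fell by 0.88 ± 0.11 on the log2 scale (adjusted p = 4.25e-05). Npm1 had 499, 487 and 528 CPM in colon and 355, 352 and 325 CPM in muscle, again without overlap, and fell by 0.58 ± 0.08 (adjusted p = 5.16e-05). All 4 chaperones and GTPases were lower, with Ncl at −0.45 ± 0.08.

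Of the polymerase I genes Mybbp1a, a Myb-binding nucleolar protein that regulates ribosomal RNA transcription and processing, had 171, 142 and 159 CPM in colon and 89.7, 105 and 88.7 CPM in muscle. It fell by 0.76 ± 0.11 (adjusted p = 1.62e-04) and Polr1b by 0.88 ± 0.23, while Polr1a stood at −0.38 ± 0.18 (adjusted p = 0.146). In 60S assembly 4 of 10 genes were lower. Rrp1b fell by 0.99 ± 0.17, and Nop2, the 28S RNA methyltransferase, by 1.06 ± 0.22. In the small subunit group 5 of 13 were lower, among them the processome subunits Wdr75 at −0.85 ± 0.15 and Wdr43 at −0.55 ± 0.12.

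Of the guide particles, Nop56 fell by 0.55 ± 0.10 and Fbl stood at −0.14 ± 0.33, with 12.6, 11.1 and 11.8 CPM in colon and 10.4, 6.83 and 15.6 CPM in muscle. Dkc1 fell by 0.51 ± 0.13 (adjusted p = 0.0118). It missed the threshold without colon replicate 3 (adjusted p = 0.0747) and without muscle replicate 3 (adjusted p = 0.0504).

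Of 77 other assembly factors 21 were lower and 1 higher, and of ribosomal protein genes 8 were lower and 1 higher. Grwd1, a chaperone of ribosomal protein uL3, fell by 1.31 and Rpl3, which encodes that protein, by 0.47. Myc fell by 1.84 ± 0.15 (adjusted p = 4.97e-07). Of 13 tested cycling genes 2 were higher and 2 lower, and the list summed to 481 to 576 CPM in colon and 499 to 542 CPM in muscle. Of 10 γδ T cell markers 7 were higher in muscle, where the list summed to 11300 to 11550 CPM against 7534 to 8065 CPM in colon. Acta1 and Cdh17, of myofibres and colon epithelium, had no count in the colon cells. Over the whole lists, myofibre genes summed to 68.6 to 119 CPM in colon cells and 15.3 to 39.7 CPM in muscle cells. Colon epithelium genes summed to 12.9 to 19.6 and 9.5 to 12.4 CPM. Satellite cell genes (359 to 499 against 51.5 to 87.1 CPM) and fibro-adipogenic progenitor genes (195 to 265 against 39.1 to 62.8 CPM) were also higher in colon cells. B cell, macrophage, neutrophil and endothelial genes summed higher in muscle cells. The part of tissue digestion, of injury and of the differing site cannot be told apart.

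**Figure D3:**
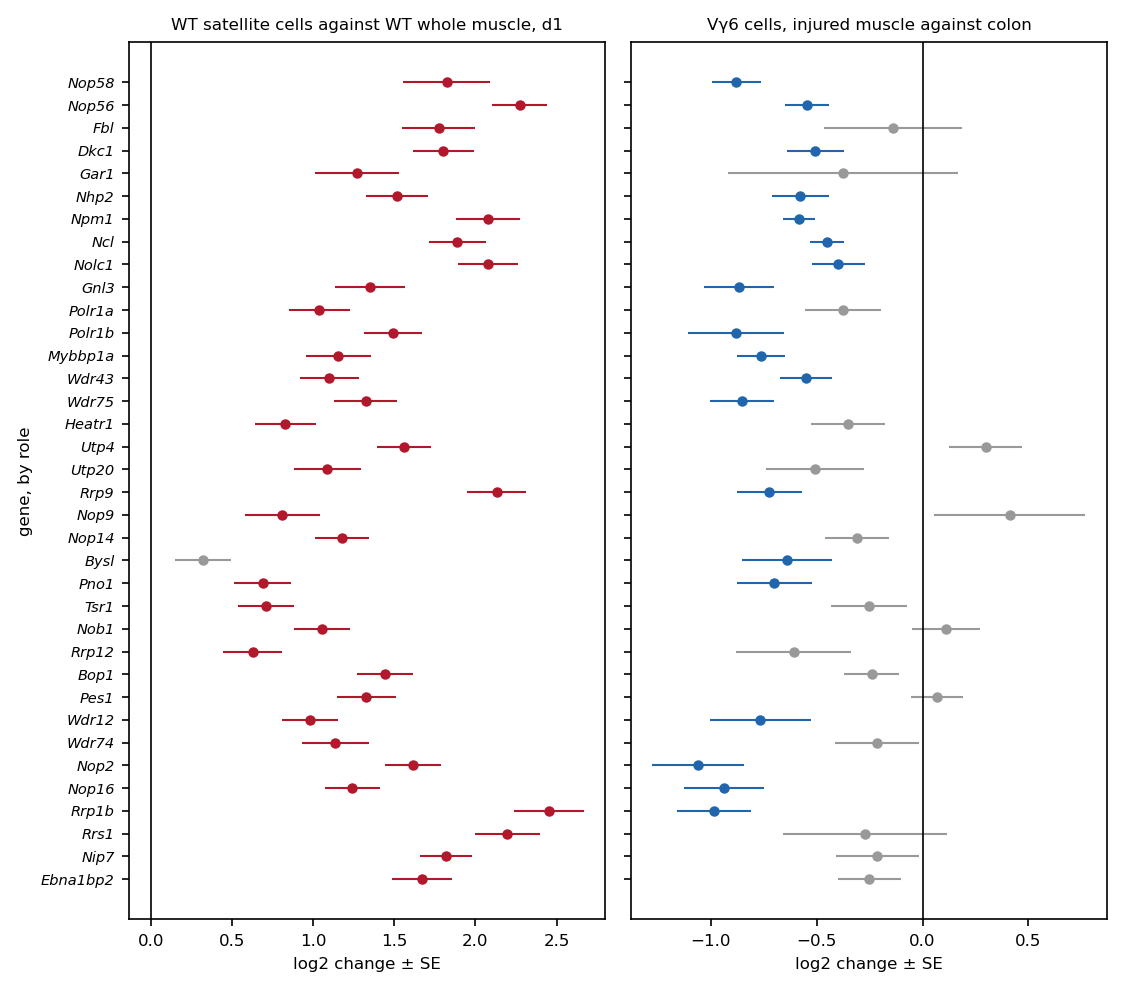
Log2 changes ± SE of the 36 genes (rows, by role) in WT satellite cells against whole WT muscle at day 1 (left) and in Vγ6 cells of injured muscle against colon (right). Red points were called higher, blue lower and grey neither: in satellite cells against muscle all 36 lie right of 0, and in Vγ6 cells of muscle against colon 32 lie left of 0.

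Against whole WT muscle of the same day, Vγ6 cells of injured muscle held less of 19 of the 36 genes and more of none, where 35.8% of 13920 tested genes were lower and 32.5% higher. The median was −0.59, against −0.04 for all tested genes. Nop16, a 60S factor, fell by 2.02 ± 0.17 and Nhp2 by 1.40 ± 0.14, whereas box C/D genes were not called. Npm1 fell by 0.87, Ncl by 0.63 and Nop58 stood at −0.30 ± 0.16. Mybbp1a, Wdr12, Pno1, Nop2 and Polr1b were also called lower. Polr1b missed the threshold under the offset for length and GC content (adjusted p = 0.0874). Of the 77 other assembly factors 28 were higher and 14 lower, and of ribosomal protein genes 15 were higher and 1 lower. Cycling genes were lower in the sorted cells in 11 of 14 and summed to 499 to 542 CPM against 1149 to 1812 CPM in muscle, and 10 of 10 macrophage and 10 of 10 myofibre genes were lower. Their part in the difference was not tested. This comparison uses the same Vγ6 muscle libraries as the one with colon, and toxin and RNA preparation differed between its groups.

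In whole muscle of WT mice the steps between days differed in how many of the 36 genes were called. At day 3 against day 1, 11 were lower and 1 was higher, where 9.36% of 18264 tested genes were lower and 9.58% higher. The median was −0.39, against −0.00 for all tested genes. With library size alone as the scaling, under which all tested genes shift by 0.40, 4 were lower and 2 higher and the median was −0.01.

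Among the 13 small subunit genes 8 were lower. Rrp12, which takes part in export of both subunits, had 118, 133 and 103 CPM at day 1 and 42.1, 56.1 and 58.4 CPM at day 3. The days did not overlap, and Rrp12 fell by 1.57 ± 0.23 (adjusted p = 2.52e-06). Nop9, an RNA-binding factor of 18S processing, had 98.1, 73.1 and 58.2 CPM and then 40.8, 21.8 and 39.4 CPM, a fall of 1.56 ± 0.25. Tsr1, a GTPase-like 40S maturation factor, fell by 1.496 ± 0.24, Bysl by 0.90 ± 0.20, Utp4 by 0.83 ± 0.24 and Nop14 by 0.78 ± 0.20, the latter pair of processome subunits not past the threshold with library size alone.

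Npm1 went the other way, from 257, 336 and 272 CPM at day 1 to 737, 699 and 527 CPM at day 3, and rose by 0.79 ± 0.19 (adjusted p = 0.00291). Ncl stood at 0.22 ± 0.19, Nop58 at −0.35 ± 0.23, Fbl at −0.61 ± 0.32, Dkc1 at −0.25 ± 0.24 and Polr1a at −0.39 ± 0.23, none of them called. Ribosomal protein genes moved with Npm1: 20 of 36 rose and none fell (median 0.55), among them Rpl23 at 0.79. Other assembly factors had 15 of 77 lower and none higher, led by Nol9 at −1.65 and Gnl2 at −1.29. Myc fell by 1.34.

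Cell markers moved at the same step, with 13 of 14 cycling genes and 8 of 10 macrophage genes higher and 8 of 10 myofibre genes lower. Macrophage genes summed to 957 to 2435 CPM at day 1 and 8601 to 14490 CPM at day 3, myofibre genes to 143600 to 176700 and then 29490 to 95310 CPM, and no myofibre, macrophage or cycling gene was at 0 in either group. Their part in the changes was not tested. The count of called genes was 6 without day 1 replicate 1 and 7 without day 3 replicate 2. Polr1b, at −0.69 ± 0.25 (adjusted p = 0.0453), missed the threshold without any 1 of 5 libraries, the exception being day 1 replicate 3, with adjusted p of 0.0522 to 0.242.

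From day 3 to day 7 in WT muscle 23 of the 36 fell and 1 rose, where 19% of tested genes were lower and 17.9% higher. This step shares its day 3 libraries with the one before. The median was −0.79, against 0.04 for all tested genes. With library size alone, under which all tested genes shift by −0.77, 35 fell and the medians were −1.59 and −0.74. All 3 box C/D, all 3 H/ACA and all 4 chaperone and GTPase genes fell.

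Ncl went from 676, 609 and 543 CPM to 91.6, 126 and 126 CPM, a fall of 1.63 ± 0.19 (adjusted p = 1.48e-08). Npm1 went to 127, 141 and 119 CPM and fell by 1.53 ± 0.20, and Nop58 went from 119, 120 and 82.2 CPM to 20.3, 19.0 and 20.2 CPM and fell by 1.63 ± 0.24. In each of these genes the days did not overlap. Fbl fell by 1.72 ± 0.35, Mybbp1a by 1.36 ± 0.19, Nolc1 by 1.30 ± 0.20, Heatr1, a processome scaffold, by 1.41 ± 0.26, and Polr1b by 1.06 ± 0.25. Polr1a stood at −0.20 ± 0.23. Dkc1 fell by 0.80 ± 0.25 but had an adjusted p of 0.144 without day 3 replicate 1.

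Pno1, an RNA-binding factor that keeps the last 18S cleavage in check, was the gene called higher, at 0.77 ± 0.22 (adjusted p = 0.00473). Its CPM did not rise, with 90.0, 75.8 and 62.3 at day 3 and 93.7, 63.9 and 63.5 at day 7, and with library size alone its change was −0.05. It also missed the threshold without day 7 replicate 1 (adjusted p = 0.127). Ribosomal protein genes fell in 32 of 36 (median −0.89), Ddx21, a nucleolar helicase, fell by 1.41, and Myc fell by 2.74. Cycling genes were lower in 14 of 14 and macrophage genes in 10 of 10, and myofibre genes were higher in 10 of 10, with their part not tested. Cycling genes summed to 1149 to 1812 CPM at day 3 and 87.9 to 133 CPM at day 7.

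From day 7 to day 14 in WT muscle 11 of the 36 fell and 1 rose, where 13.2% of tested genes were lower and 4.14% higher. The median of −0.15 turned to 0.04 with DESeq2's size factors, under which 6 fell and 2 rose and all tested genes shifted by 0.18. With library size alone 9 fell and 2 rose. Of the falls, 6 were in 60S assembly.

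Gnl3, nucleostemin, a nucleolar GTPase of stem and cycling cells, fell by 1.24 ± 0.23, from a mean of 31.2 to 14.5 CPM. Pno1 fell by 1.18 ± 0.23, to 40.3, 37.9 and 30.4 CPM, all below the day 7 libraries. Nhp2 fell by 1.03 ± 0.24 and Npm1 by 0.80 ± 0.20, to 81.3, 88.6 and 73.5 CPM. Nop9 rose by 0.86 ± 0.26, from 11.8, 9.78 and 16.8 CPM to 28.0, 24.8 and 22.2 CPM, but missed the threshold without day 7 replicate 2 (adjusted p = 0.0808) or day 14 replicate 1 (0.0571).

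Bop1 and Ebna1bp2, of 60S assembly, fell by 0.71 ± 0.19 and 1.01 ± 0.27. Bop1 missed the threshold without day 7 replicate 1 (adjusted p = 0.0565) or day 14 replicate 2 (0.0848), and Ebna1bp2 without day 7 replicate 1 or 2 or day 14 replicate 2 or 3 (0.078 to 0.0893). Without any 1 of day 7 replicates 1 and 2 and the 3 day 14 libraries, 5 to 7 of the 36 were called. Nop58 stood at −0.10 ± 0.26, Ncl at −0.10 ± 0.19, Fbl at 0.48 ± 0.38, Dkc1 at −0.06 ± 0.25, Polr1a at 0.27 ± 0.24 and Polr1b at 0.11 ± 0.27. Ribosomal protein genes fell in 24 of 36 (median −0.68). Macrophage genes were lower in 8 of 10 and summed to 426 to 728 CPM at day 7 and 111 to 143 CPM at day 14. Cycling genes were lower in 7 of 14, with 87.9 to 133 and then 61.04 to 72.8 CPM, and their part was not tested.

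In DTR muscle 9 of the 36 fell and none rose from day 1 to day 3, where 5.86% of tested genes were lower and 8.49% higher. Rrp12 had 117, 98.9 and 136 CPM and then 38.4, 39.8 and 50.9 CPM, a fall of 1.71 ± 0.23 (adjusted p = 6.65e-07), and Tsr1 fell by 1.203 ± 0.24. Both held their calls in every alternative run. Polr1b at −0.89 ± 0.25, Nop9 at −0.81 ± 0.24, Wdr75 at −0.76 ± 0.24 and Mybbp1a at −0.63 ± 0.19 each missed the threshold in several. The count was 3 without day 1 replicate 1, 2 without day 1 replicate 3 and 3 without day 3 replicate 2. It was 14 with DESeq2's size factors and 3 with library size alone, of which Npm1 was then higher at 0.59.

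Npm1 stood at 0.39 ± 0.19 in DTR muscle, Ncl at 0.06 ± 0.19, Nop58 at −0.60 ± 0.23, Fbl at −0.47 ± 0.32, Dkc1 at −0.09 ± 0.24 and Polr1a at −0.33 ± 0.23. Of ribosomal protein genes 7 rose. Cycling genes were higher in 13 of 14 and macrophage genes in 9 of 10, and myofibre genes were lower in 4 of 10. Macrophage genes summed to 844 to 2181 CPM at day 1 and 8005 to 9795 CPM at day 3, and cycling genes to 152 to 349 and then 988 to 1294 CPM, with their part not tested. Whether any of the 36 differed between genotypes in this step was covered by the test of genotype by time given below.

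From day 3 to day 7 in DTR muscle 18 fell and 1 rose, where 18.4% of tested genes were lower and 17.1% higher, and the median was −0.66 against −0.22 for all tested genes. Tsr1 went from 63.2, 50.4 and 46.5 CPM to 6.28 and 6.83 CPM, a fall of 2.03 ± 0.30. Mybbp1a went from 215, 187 and 190 CPM to 36.5 and 30.5 CPM, a fall of 1.55 ± 0.22. Utp20 fell by 1.497 ± 0.32, Fbl by 1.56 ± 0.40, Polr1b by 1.21 ± 0.29, Ncl by 1.18 ± 0.22, Nop58 by 1.17 ± 0.28, Nop2 by 1.09 ± 0.25, Nolc1 by 1.04 ± 0.22 and Npm1 by 0.93 ± 0.22. Dkc1 stood at −0.24 ± 0.27 and Polr1a at 0.25 ± 0.26. Pno1 rose by 1.39 ± 0.24, with 72.0, 67.5 and 67.1 CPM and then 94.2 and 86.3 CPM, but with library size alone stood at 0.39 and was not called. With that scaling 33 of the 36 fell, and all tested genes shifted by −0.97. Cycling genes were lower in 13 of 14, with 988 to 1294 and then 146 to 194 CPM, and macrophage genes in 9 of 10, with 8005 to 9795 and then 407 to 1664 CPM. Myofibre genes were higher in 8 of 10, with 73090 to 98560 and then 196400 to 208000 CPM, and the part of these cells was not tested.

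From day 7 to day 14 in DTR muscle the 36 genes split, with 10 lower and 4 higher, where 19.7% of tested genes were lower and 14.6% higher. DESeq2's size factors gave 8 lower and 7 higher and library size alone 5 lower and 8 higher, with a median of 0.10 in place of −0.28 under the latter. Mybbp1a rose by 1.21 ± 0.22, to 125, 83.5 and 97.8 CPM, and Tsr1 by 1.61 ± 0.30, to 22.03, 21.5 and 33.0 CPM. All 3 day 14 libraries lay above both day 7 libraries in both genes. Rrp12 rose by 1.14 ± 0.26 and Polr1b by 1.10 ± 0.30, but without day 7 replicate 2 their adjusted p were 0.0519 and 0.0682.

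Among those that fell, Gar1, a core protein of H/ACA particles, was at −2.99 ± 0.66, from 3.04 and 3.19 CPM to 0.350, 0.422 and 0.615 CPM. It was the lowest of the 36, and its 3 day 14 libraries held 5 counts in all. Ebna1bp2 fell by 1.22 ± 0.29, Nhp2 by 1.18 ± 0.27, Pno1 by 1.14 ± 0.24 and Npm1 by 1.00 ± 0.21. Gnl3 fell by 0.96 ± 0.24 and missed the threshold without day 7 replicate 1 (adjusted p = 0.106). Nop58 stood at −0.26 ± 0.28, Fbl at −0.60 ± 0.46, Ncl at −0.38 ± 0.21, Dkc1 at −0.68 ± 0.28 and Polr1a at 0.14 ± 0.27. Of other assembly factors 10 rose and 15 fell, with Nol6, a processome subunit, at 1.46 and Rpf2, of the 5S particle, at −1.95. Macrophage genes were lower in 8 of 10, cycling genes in 9 of 14 and genes of fibro-adipogenic progenitors in 7 of 8, with their part not tested. Macrophage genes summed to 407 to 1664 CPM at day 7 and 127 to 262 CPM at day 14, and cycling genes to 146 to 194 and then 70.3 to 115 CPM.

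**Figure D4:**
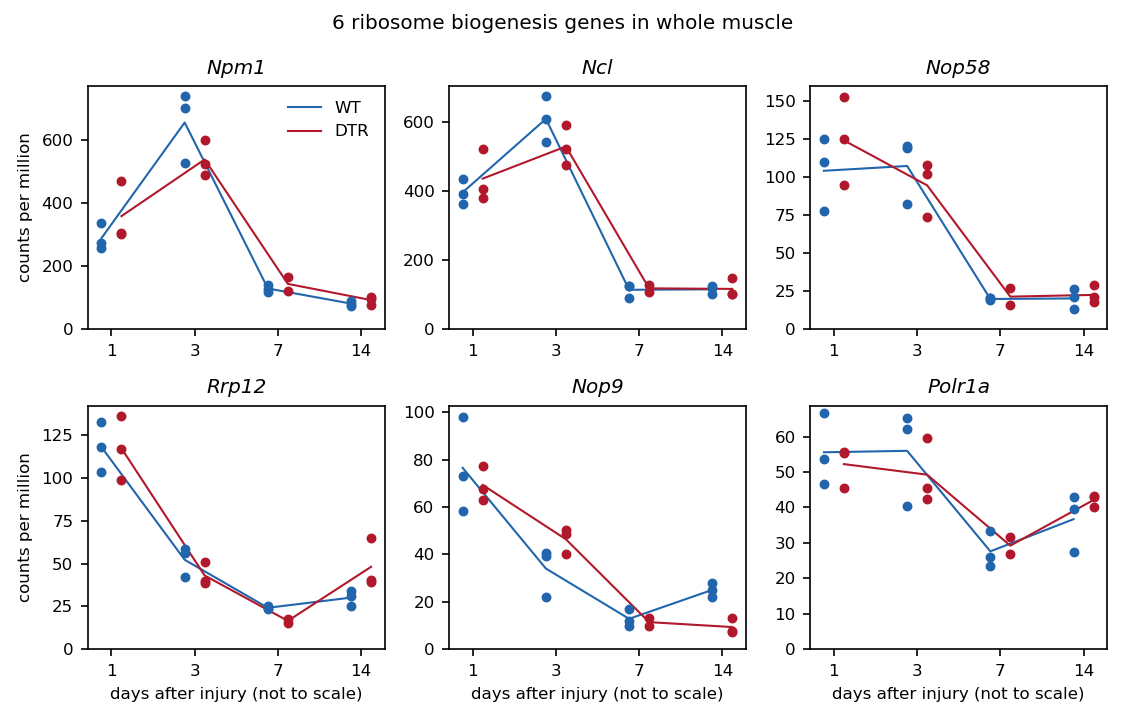
CPM of 6 of the genes in whole muscle by day after injury (days spaced evenly), 1 point per library, lines through the group means of WT and DTR. Npm1 and Ncl are highest at day 3, Rrp12 and Nop9 are highest at day 1, Polr1a varies least, and Nop9 at day 14 is higher in all 3 WT libraries than in all 3 DTR libraries.

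Over the 4 days 34 of the 36 changed in WT (F-test over 3 coefficients, where 53.7% of tested genes were called) and 32 in DTR (56.2%). Polr1a was called in neither, with adjusted p of 0.146 in WT and 0.451 in DTR. Rrs1 was not called in WT, and Nob1, Bop1 and Wdr12 were not called in DTR. With library size alone as the scaling, all 36, these genes and Polr1a included, were called in WT and all 36 in DTR. By group means of CPM, without TMM scaling, the widest range in WT was that of Npm1, at 3.01 on the log2 scale, followed by Tsr1 at 2.92, Fbl at 2.71, Gnl3 at 2.69 and Nop9 at 2.58. The narrowest were Polr1a at 1.02, Pno1 at 1.07 and Wdr12 at 1.11. In DTR the widest were Gar1 at 4.51, Tsr1 at 3.99, Mybbp1a at 2.96, Fbl at 2.93 and Nop9 at 2.90, and the narrowest Pno1 at 0.77, Polr1a at 0.84 and Wdr12 at 0.91.

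The day of the highest mean depended on the scaling. In CPM 18 of the 36 peaked at day 1 and 18 at day 3 in WT, whereas after TMM scaling 33 peaked at day 1, 2 at day 3 and 1 at day 7. In DTR the CPM peaks were 24, 11 and 1 at days 1, 3 and 7. Each of the 36 had its lowest CPM at day 7 or day 14, 18 and 18 in WT and 21 and 15 in DTR.

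The effect of γδ T cell depletion was compared within each day. At days 1 and 3 edgeR called none of the 36 in either direction, where 0% of tested genes were called higher and 0% lower on each day. None had an unadjusted p under 0.05, against 778 of 18264 genes at day 1 and 873 at day 3, and DESeq2 called 0 on both days. The medians were −0.07 and −0.06. At day 1 DTR replicate 2 was the highest of its group for 28 of the 36 and DTR replicate 1 the lowest for 27. Over the 36 the rank correlation of the day 1 change with GC content was −0.54, against −0.35 over 17981 genes of the same libraries.

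At these days Nop58 stood at 0.11 ± 0.23 and −0.14 ± 0.23, Npm1 at 0.15 ± 0.19 and −0.24 ± 0.19, and Ncl at −0.01 ± 0.19 and −0.17 ± 0.19. Fbl stood at −0.07 ± 0.32 and 0.06 ± 0.32, Dkc1 at −0.10 ± 0.24 and 0.06 ± 0.24, Polr1a at −0.22 ± 0.23 and −0.15 ± 0.23, and Polr1b at 0.09 ± 0.24 and −0.12 ± 0.25. The ranges of the 2 genotypes overlapped in each of these 7 genes on both days.

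At day 7 1 of the 36 was higher in DTR and none lower, where 0.635% of tested genes were higher and 1.37% lower. It was Nob1, the endonuclease that makes the 3′ end of 18S RNA, with 39.1 and 32.5 CPM in DTR and 21.8, 25.4 and 17.96 CPM in WT, a change of 0.95 ± 0.25 (adjusted p = 0.0395). The call was lost without WT replicate 3 (adjusted p = 0.167), DTR replicate 1 (0.262) or DTR replicate 2 (0.107), with the replicate number as a block (0.246) and with library size alone (0.073). In that scaling, which shifts all tested genes by −0.23, Tsr1 was the gene called, at −1.07, and the median of the 36 was −0.04 in place of 0.21. Dkc1 stood at 0.61 ± 0.27, Npm1 at 0.36 ± 0.21, Nop58 at 0.32 ± 0.27, Polr1a at 0.30 ± 0.26, Ncl at 0.29 ± 0.21, Fbl at 0.22 ± 0.40 and Polr1b at −0.26 ± 0.29, none of them called. Cycling genes were above 0 in 14 of 14 and called higher in 3 of them, Mki67, Ccnb1 and Mcm5. They summed to 146 to 194 CPM in DTR and 87.9 to 133 CPM in WT. Satellite cell genes summed to 3172 to 3285 CPM in DTR and 5080 to 5972 CPM in WT, without overlap, with 5 of 10 above 0 and none called. Macrophage genes were above 0 in 9 of 10 (median 0.81) and genes of fibro-adipogenic progenitors in 6 of 8 (median 0.68), with none called. Of all tested genes 48.4% lay above 0. Macrophage genes summed to 407 and 1664 CPM in DTR replicates 1 and 2 and 426 to 728 CPM in WT. Progenitor genes summed to 3251 and 7631 CPM against 3763 to 5316 CPM. In both sums DTR replicate 1 lay below every WT library. The part of these cells was not tested.

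At day 14 none was higher in DTR and 1 was lower, where 0.0383% of tested genes were higher and 0.0383% lower. The lower gene was Nop9, with 12.9, 7.17 and 7.79 CPM in DTR and 28.0, 24.8 and 22.2 CPM in WT. The genotypes did not overlap, and the change was −1.46 ± 0.28 (adjusted p = 0.0141). Its call was lost without WT replicate 1 (adjusted p = 0.0899) or 2 (0.0726) and without DTR replicate 2 (0.153) or 3 (0.332), with changes of −1.44 to −1.33. Without DTR replicate 1 Nop9 kept its call and Bop1 was called too, at 0.90.

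Most of the 36 genes lay above 0 at day 14, none of these called. Of the 36, 29 were above 0 (80.6%, against 50.6% of all tested genes), the median was 0.35 against 0.01, and 11 had an unadjusted p under 0.05, against 1046 of 18264 genes. Those 11 include Nop9 and Gar1, which lay below 0. DTR replicate 3 was the highest of its group for 19 of the 36, and without it the median fell to 0.18. Without DTR replicate 1 or 2 the median was 0.29 or 0.36. Gar1 had the largest change of the 36, at −1.81 ± 0.70 on 5 counts in DTR (adjusted p = 0.699), and all 3 H/ACA genes lay below 0. Of the 77 other assembly factors 69 were above 0 (median 0.34) and none was called, and 35 of 36 ribosomal protein genes were above 0 (median 0.24). Bop1 had the largest of the positive changes, at 0.76 ± 0.20, followed by Gnl3 at 0.76 ± 0.24, and neither was called by edgeR, whereas DESeq2 called Bop1 (adjusted p = 0.00435). Polr1b stood at 0.73 ± 0.27, Npm1 at 0.17 ± 0.20, Nop58 at 0.16 ± 0.26, Polr1a at 0.17 ± 0.24, Ncl at 0.01 ± 0.19, Dkc1 at −0.00 ± 0.26 and Fbl at −0.86 ± 0.44. Cycling genes summed to 70.3 to 115 CPM in DTR and 61.04 to 72.8 CPM in WT, with 12 of 14 above 0, and satellite cell genes were above 0 in 10 of 10. Macrophage genes were above 0 in 8 of 10 (median 0.41), with 127 to 262 CPM in DTR and 111 to 143 CPM in WT, and erythrocyte genes in 5 of 5 (median 0.57). The part of these cells was not tested.

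The test of genotype by time called 1 of the 36, Nop9 (adjusted p = 0.0302), where 0.613% of tested genes were called. In WT Nop9 was lowest at day 7 and in DTR at day 14. The call was lost without any 1 of 6 libraries, namely replicate 3 of day 3 DTR, replicate 2 of day 7 DTR, and replicates 1 and 2 of WT and 2 and 3 of DTR at day 14, when 0 of the 36 were called.

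With rIL-17A against PBS at day 7 the genes split, with 11 of the 36 lower and 4 higher, where 16.1% of 12896 tested genes were lower and 18.1% higher. The median was −0.24, against 0.05 for all tested genes, and with library size alone, which shifts all tested genes by 0.15, 6 were lower and 4 higher. Each group had 2 libraries.

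Mybbp1a had 95.1 and 71.9 CPM with rIL-17A and 21.2 and 21.9 CPM with PBS, and rose by 1.82 ± 0.26 (adjusted p = 3.76e-04). Rrp12 had 53.3 and 62.1 CPM against 17.95 and 11.2 CPM, and rose by 1.84 ± 0.28 (adjusted p = 5.62e-04). In both genes both treated libraries lay above both controls. Nop9 rose by 1.47 ± 0.43, with 32.2 and 31.1 CPM against 15.9 and 4.86 CPM, and Polr1b by 1.05 ± 0.37. Polr1a stood at 0.34 ± 0.26 and Fbl at 1.49 ± 0.60 (adjusted p = 0.072).

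Of 60S assembly 5 of 10 genes fell and none rose, with Ebna1bp2 at −1.53 ± 0.27, Nop16 at −1.44 ± 0.25 and Wdr12, a subunit of the complex that also holds Pes1 and Bop1, at −0.88 ± 0.25. Of H/ACA proteins Nhp2 fell by 1.27 ± 0.28 and Dkc1 by 0.75 ± 0.26. Gnl3 fell by 1.41 ± 0.33 and Pno1 by 1.05 ± 0.22, the latter with 47.2 and 43.2 CPM against 86.4 and 83.5 CPM. Npm1 stood at −0.62 ± 0.24 (adjusted p = 0.0609), Nop58 at −0.13 ± 0.28 and Ncl at −0.03 ± 0.21.

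With either rIL-17A library left out 7 of the 36 were called, on the assumption that the lone library varies like the PBS pair, and up to 16 with a PBS library left out. Without rIL-17A replicate 1 the adjusted p were 0.112 for Nop9, 0.405 for Polr1b, 0.0547 for Wdr12 and 0.0955 for Dkc1. Without rIL-17A replicate 3 they were 0.0645 for Polr1b, 0.0524 for Pno1, 0.0642 for Gnl3, 0.151 for Wdr12 and 0.26 for Dkc1. Polr1b also missed the threshold without PBS replicate 3 (0.0938) and Dkc1 without PBS replicate 1 (0.123).

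Of other assembly factors 10 rose and 20 fell. Nol6 rose by 2.13 and Rpf2 fell by 1.51. Of ribosomal protein genes 6 rose and 5 fell, with Rps2 at 2.395 and Rpl3 at −1.51. Polr1c, a subunit shared by polymerases I and III, fell by 1.49 and Myc by 1.54 (adjusted p = 0.012).

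The median length of transcripts differed between the genes that rose and those that fell, although the longest of all, that of Wdr12 at 10012 bases, belonged to a gene that fell. The median longest transcript was 4169 bases for the 4 that rose and 2264 bases for the 11 that fell, and over the 36 the rank correlation of change with length was 0.37, against 0.34 over 12742 genes of the same 4 libraries. In DTR muscle at day 14 against day 7 the medians were 4169 and 1695 bases and the correlations 0.55 and 0.21. With the offset for length and GC content 2 rose and 7 fell with rIL-17A. Under that offset Mybbp1a and Rrp12 kept their calls, and Nop9, Polr1b, Pno1 and Dkc1 did not (adjusted p = 0.0742 to 0.146). Macrophage genes moved as well: 7 of 10 were lower with rIL-17A, and they summed to 547 to 653 CPM against 1689 to 2092 CPM with PBS, none at 0. Satellite cell genes summed to 8351 to 8684 CPM with rIL-17A and 2674 to 3193 CPM with PBS, without overlap, although 2 of 10 were higher and 2 lower. Endothelial genes summed to 342 to 366 and 227 to 242 CPM, with 3 of 6 higher and 1 lower, and cycling genes to 191 to 198 and 165 to 249 CPM. The part of transcript length and of these cells in the changes was not tested further.

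**Figure D5:**
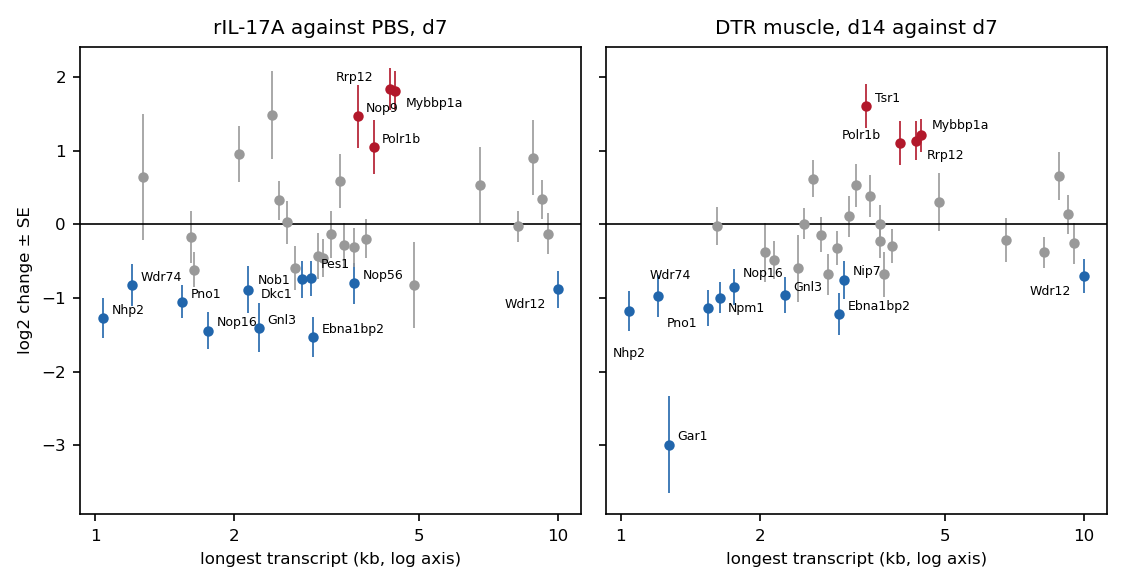
Log2 change ± SE of the 36 genes against the length of the longest transcript in kb (log axis), for rIL-17A against PBS at day 7 and for DTR muscle at day 14 against day 7. Rank correlations over the 36 are 0.37 and 0.55, and Mybbp1a and Rrp12 are among those above 0 in both panels.

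Whether the strand of reads was used in counting is not given in the sources used here. A gene on the other strand overlaps the span, introns included, of 18 of the 36 genes. If strand was not used, reads from a stretch shared by such a pair cannot be told apart. Among the overlapped genes are Nop9 (overlapped by Cideb), Mybbp1a (Spns2), Tsr1 (Srr) and Pno1 (Wdr92), whereas Rrp12, Npm1 and Nob1 are not overlapped. Reads of Npm1 and of the ribosomal protein genes can also be shared with processed copies elsewhere in the genome.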

How the data were processed

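Whole-muscle RNA and sorted cells of 39 libraries in 14 groups were analysed. The deposited values are counts per gene, whole and not normalized. Per the submitters' processing notes, the authors used STAR 2.7.3a, featureCounts of Subread 2.0.0 and mm10. Not given in the sources used here are the library kit, the strand setting, the annotation and how duplicates were treated. Unmarked duplicates would make counts look more precise than they are.

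Genes were filtered with filterByExpr (minimum count 10, minimum total 15), scaled by TMM and tested with edgeR 4.0.16 (R 4.3.3, quasi-likelihood F-test, robust) with Benjamini-Hochberg adjustment over all tested genes at 0.05. The 23 time course libraries entered 1 fit, and each other comparison its own libraries. DESeq2 1.42.0 was an alternative. CPM were computed on each library's total. The script was tested on simulated data.

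The genes and lists were chosen with earlier results of these data known. Named were, per comparison, the 6 genes with the smallest p in each direction among those called, plus Nop58, Npm1, Fbl, Ncl, Dkc1, Polr1a and Polr1b, and, over time, the 5 widest and 3 narrowest ranges. For Vγ6 cells against whole muscle, Fbl, Dkc1 and Polr1a were left out. Other genes named (such as Bop1 and Gnl3 at day 14, Nop2, Gar1 and those not called) were singled out after their values were seen.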

Additional observations from a re-analysis of the deposited data

Results flagged for a closer look

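Nop9 differed between genotypes in its course over days 1 to 14, by the test of genotype by time in edgeR (adjusted p = 0.0302). Its log2 difference between DTR and WT was −1.46 at day 14, where all 3 DTR libraries lay below all 3 WT libraries. The call rests on 6 of the libraries, each of which ends it when left out. Cideb overlaps the span of Nop9 on the other strand. With the strand setting unknown, reads from the stretch the pair shares may not have been told apart.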

How the results depend on the processing

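Counts below are of the 36 genes called. For DTR day 3 against day 1 (9) they were 14 with DESeq2's size factors, with DESeq2 and with the groups fitted alone, 3 with library size alone or no filter, and 2 to 11 with 1 library left out. For WT day 3 against day 1 (12) they were 6 with library size alone and 6 to 12 with 1 library left out, and for DTR day 7 against day 3 (19) 33 with library size alone. For WT day 14 against day 7 (12) they were 6 with the groups alone and 5 to 12 with 1 library left out. For DTR against WT at day 7 (1) they were 2 with DESeq2 (Nob1 and Tsr1), 0 with the groups alone and 0 to 1 with 1 library left out. At day 14 (1) they were 2 with DESeq2 (Nop9 and Bop1) and 0 to 2 with 1 library left out, and for genotype by time (1) 2 with DESeq2 (the same pair) and 0 to 1. For rIL-17A (15) they were 7 to 16 with 1 library left out. Pno1 in WT at day 7 against day 3 turned to −0.0489 with library size alone. The cause of these moves was not tested. Of 95 named calls, 68 stayed past the threshold in every setting.

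With the replicate number as a replicate block the day 7 count for DTR against WT was 0, and no other count moved by over 1.5 times. Deviations of same-numbered libraries were weakly correlated (single pairs from −0.20 to 0.14 over 15 comparisons). With 2 or 3 libraries per group this cannot settle whether the numbers mark pairs. In satellite cells the replicate numbers differ from the sample numbers the submitters gave, so pairs there need not be the submitters' own. Chosen after seeing the data, leaving out the 4 libraries richest in olfactory counts gave 0 at day 7 and 2 at day 14 for DTR against WT, and the offset for length and GC content gave 0 at day 7 and 9 for rIL-17A. Groups of 2 or 3 libraries, and 5 counts of Gar1 in DTR muscle at day 14, limit the precision.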
